A study of Mus musculus and Rattus norvegicus with 6 samples.

Results

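The 9 genes described here encode enzymes that build triglyceride in the liver: Gpam, Agpat2, Agpat3, Lpin1, Lpin2, Lpin3, Mogat1, Dgat1 and Dgat2. They were chosen by symbol, as every probe set that the platform annotation gives to 1 of these genes alone. This gave 19 of 45037 probe sets on the mouse arrays and 18 of 31042 on the rat arrays, with all 9 genes among the 18193 named mouse genes and among the 14217 named rat genes. Liver RNA was hybridised to short-oligonucleotide arrays from 6 groups of male animals aged 20 weeks, 6 h after an intraperitoneal injection. In mice (C57/BL6J background) the groups were Lepob/Lepob given recombinant murine leptin, Lepob/Lepob given saline, and wild type (WT) given saline. In rats (F344/NSlc background) they were Lepmkyo/Lepmkyo given the same leptin, Lepmkyo/Lepmkyo given saline, and WT given saline. Both alleles inactivate the leptin gene in the whole body, and a leptin-injected WT group was not analysed here. The rat labels conflict, with the genotype also spelled Lepmyo/Lepmkyo and Lepob in places, and the descriptions and the design text were followed here.

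Each group held 1 array, and the labels do not say whether that was 1 animal or a pool, so no spread between animals is known and no test between groups was made. "Higher" and "lower" below compare the signals of 2 arrays. Signals are the authors' MAS5 values on a linear scale, and the floor, the median of all values of a species, was 82.7 for mice and 97.0 for rats. Values under the floor were raised to it before a ratio was taken, so that a ratio against such a value is a bound and is written "at least". Unless another is named, the probe set brightest on average over the 3 arrays stands for a gene. Technical error was gauged from genes with several probe sets, whose log2 ratios had a pooled SD of 0.45 for the mouse genotype comparison and 0.26 for leptin in mice, and of 0.44 and 0.25 for the same comparisons in rats. Differences between animals are not part of that SD.

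Triglyceride is assembled on a glycerol backbone. Gpam, the mitochondrial glycerol 3-phosphate acyltransferase, adds the first acyl chain, and Agpat2 and Agpat3 are acyltransferases that convert the resulting lysophosphatidate to phosphatidate. The lipins Lpin1, Lpin2 and Lpin3 remove the phosphate to give diacylglycerol, and Lpin1 also acts in the nucleus as a coactivator of PPARA with PGC-1alpha. Mogat1 reaches diacylglycerol by another route, by acylating monoacylglycerol. Dgat1 and Dgat2, enzymes unrelated in sequence, add the last acyl chain, while Mogat1 belongs to the same protein family as Dgat2. Loss of Agpat2 or of Lpin1 causes lipodystrophy, in people and mice for Agpat2 and in mice for Lpin1, and Mogat1 is a known target of PPARG in mouse liver.

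The array medians were 77.0 to 91.9 in mice and 93.6 to 99.3 in rats, while the trimmed means were 496 to 497 on all 6 arrays. In the mouse genotype comparison, centring the arrays on their medians moved the median log2 ratio of all genes by 0.24. Genes at least 2-fold higher numbered 533 and lower 443 as deposited, 663 and 350 after quantile normalization, and 962 and 235 after centring. Centring also changed the split of leptin-injected Lepob/Lepob against WT mice to 767 higher and 235 lower, beside 476 and 414 as deposited, and that of leptin in rats to 29 higher and 20 lower, beside 23 and 27. Hepatocyte markers were bright on all arrays. The summed signal of 6 such genes was 226023 in leptin-injected Lepob/Lepob, 220989 in saline-injected Lepob/Lepob and 290982 in WT mouse liver, and that of 7 genes in rats was 275313, 249998 and 274133 in the same order of groups. Of the adipocyte markers, Adipoq and Lep were under the floor on all 6 arrays, Retn on the 3 mouse arrays and Plin1 on the 3 rat arrays. Of those above the floor on at least 1 array, Fabp4, which macrophages make as well, had 3250.7 in saline-injected Lepob/Lepob and 1125.1 in WT mouse liver. In rats Fabp4 had 784.8 in saline-injected Lepmkyo/Lepmkyo and 57.7, under the floor, in WT liver. Pck1, which hepatocytes make as well, had 23838.4 in saline-injected Lepob/Lepob and 25389.2 in WT mouse liver, and 27856.4 in saline-injected Lepmkyo/Lepmkyo and 34058.3 in WT rat liver, where Cfd was 1.29-fold lower too. The 6 adipocyte markers with a rat probe set summed to 29212.2 in saline-injected Lepmkyo/Lepmkyo and 34762.8 in WT liver. Of 6 macrophage and Kupffer cell markers in mice, 3 were higher and 3 lower in saline-injected Lepob/Lepob than in WT liver. In rats 3 of 5 were higher and 2 lower in saline-injected Lepmkyo/Lepmkyo than in WT liver. The 3 neutrophil markers summed to 1639.1 in leptin-injected Lepob/Lepob, 613.3 in saline-injected Lepob/Lepob and 302.9 in WT mouse liver. Each of the 3 was at least 2.23-fold higher after leptin. Between saline-injected Lepob/Lepob and WT liver their directions differed. Ngp had the lower signal in the mutant, 94 against 120.6, while S100a8 had 311.7 against 97.7 and S100a9 207.6 against 84.6. The erythroid gene Alas2 was 2.43-fold lower in saline-injected Lepob/Lepob than in WT mouse liver and 1.81-fold higher in saline-injected Lepmkyo/Lepmkyo than in WT rat liver. Muscle markers summed to 78.6 to 210.3 on the 6 arrays. The summed signal of 5 stellate cell markers was 16420.3 in saline-injected Lepob/Lepob and 9655.5 in WT mouse liver. Dcn alone gave 12808.7 and 7316.1 of these sums, and Des was 1.26-fold lower in the mutant. In rats the sum was 6854.3 in saline-injected Lepmkyo/Lepmkyo and 2165.9 in WT liver, with all 5 higher. Bile duct markers summed to 268.3 in saline-injected Lepob/Lepob and 527.7 in WT mouse liver, the 3 measured being under the floor in the mutant. In rats they summed to 787.1 in saline-injected Lepmkyo/Lepmkyo and 438.5 in WT liver. Of 4 endothelial cell markers, 3 were higher and 1 lower in either species. The part of these cell types in the results below was not tested. In whole tissue, fewer cells of a type and less RNA per cell cannot be told apart.

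Leptin-deficient mice were set against WT mice, both given saline, to see how livers without leptin differ. In Lepob/Lepob liver 8 of the 9 genes had a higher signal than in WT liver, and 1, Mogat1, was at least 2-fold higher. None was 2-fold lower. Over the whole array, with 11956 genes measured, the share past 2-fold was 4.46% on the higher side and 3.71% on the lower side. The median log2 ratio of the 9 genes was 0.34, beside -0.03 over all genes, of which 47.4% lay above 0. At 1.5-fold, 2 of the 9 were higher (12.3% of all genes) and 0 lower (12.6%). After centring on the array medians, 5 were 1.5-fold higher and all 9 lay above 0.

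**Figure D1:**
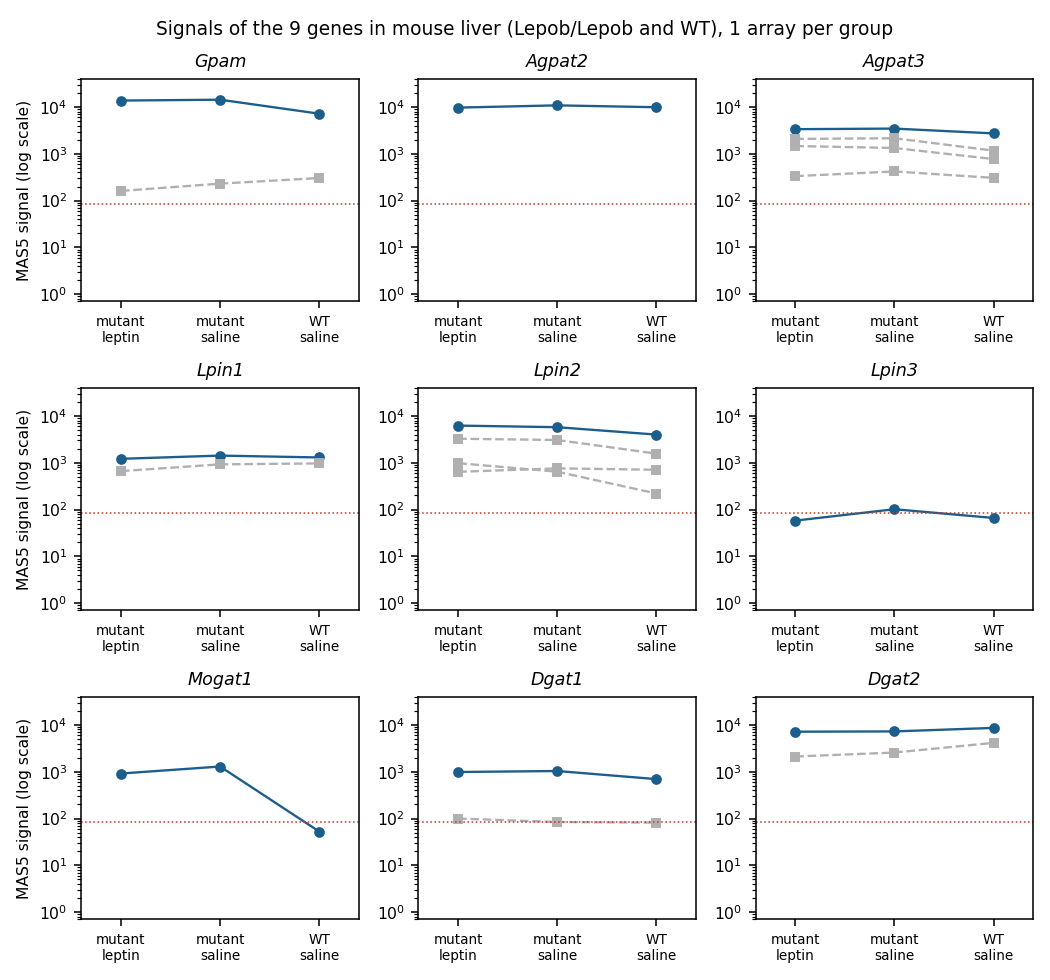
MAS5 signal (vertical log axis) of the probe sets of the 9 genes on the mouse arrays of leptin-injected Lepob/Lepob, saline-injected Lepob/Lepob and WT liver. Filled circles and solid lines mark the probe set that represents a gene, grey squares and dashed lines its other probe sets, and the dotted line the floor of 82.7. Each point is 1 array. Mogat1 is under the floor in WT liver alone.

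Mogat1, on its single probe set 1419504_at, had a signal of 914.9 in leptin-injected Lepob/Lepob, 1290.4 in saline-injected Lepob/Lepob and 52.6 in WT liver. Both mutant arrays were far above the floor and the WT array was under it. The saline-injected mutant was therefore at least 15.6-fold higher than WT, and the leptin-injected mutant at least 11.1-fold higher. In rats the Mogat1 probe set gave 16.2, 1.0 and 10.2 in leptin-injected Lepmkyo/Lepmkyo, saline-injected Lepmkyo/Lepmkyo and WT liver, all under the floor, so that no ratio could be formed. A value under the floor on 1 rat probe set does not show that the transcript is lacking.

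Gpam, which commits acyl-CoA to glycerolipid, had 13760.6 in leptin-injected Lepob/Lepob, 14351.5 in saline-injected Lepob/Lepob and 7208.6 in WT liver. The saline-injected mutant was 1.99-fold higher, just short of the 2-fold threshold, which it passed after centring with a log2 ratio of 1.25. Its second probe set, 1425834_a_at, ran the other way at much lower signals of 161.3, 230.9 and 304.1 in the same order of groups, a log2 ratio of -0.40 between saline-injected mutant and WT. The median over both Gpam probe sets was 0.30. Agpat2 differed by 1.10-fold, with 10864.9 in saline-injected Lepob/Lepob and 9903.8 in WT liver. For Agpat3, all 4 probe sets were higher in the mutant, by 1.27-fold to 1.84-fold, and the brightest had 3463.1 against 2734.3 in WT liver.

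Among the lipins, the log2 ratio was 0.53 for Lpin2 and 0.13 for Lpin1, a gap smaller than the SD of 0.45 between probe sets. Lpin2 had 6236.1 in leptin-injected Lepob/Lepob, 5754.8 in saline-injected Lepob/Lepob and 3998.5 in WT liver, 1.44-fold higher in the saline-injected mutant. All 4 of its probe sets were higher in that mutant, but by unequal amounts: 1.07-fold on 1460290_at, 1.96-fold on 1452837_at and 2.92-fold on 1446316_at, which had 644.3 against 220.3 in WT liver. Lpin1 had 1423.6 in saline-injected Lepob/Lepob and 1298.2 in WT liver, 1.10-fold higher, and its other probe set was 1.05-fold lower. The Lpin1 differences and that of 1460290_at for Lpin2 were smaller than the spread between probe sets. Lpin3 passed the floor in saline-injected Lepob/Lepob liver alone, with 58.1 in leptin-injected Lepob/Lepob, 101.7 in saline-injected Lepob/Lepob and 66.2 in WT liver.

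The diacylglycerol acyltransferases pointed in opposite directions. Dgat1 had 985.2 in leptin-injected Lepob/Lepob, 1034.9 in saline-injected Lepob/Lepob and 694.5 in WT liver, 1.49-fold higher in the saline-injected mutant. That probe set can bind several transcripts, and the other one lay near the floor with 84.2 in saline-injected Lepob/Lepob and 81.6 in WT liver. Dgat2 had 7162.0, 7261.6 and 8629.6 in leptin-injected Lepob/Lepob, saline-injected Lepob/Lepob and WT liver. It was 1.19-fold lower in the saline-injected mutant, and 1.61-fold lower on its second probe set, where the signals were 2565.9 and 4132.7. After centring on the array medians the log2 ratio of Dgat2 turned to 0.01, so its direction depends on the scaling.

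The promoters of 7 of the 9 mouse genes were matched in a RefSeq table of assembly GRCm38.p6, with 11 windows of 250 bases before a start. Shown are Mogat1, the gene with the largest ratio, and the windows of Gpam, Lpin1 and Lpin2 in which a searched motif was found. Capitals mark the matches: the nuclear receptor hexamer AGGTCA in Gpam and Lpin1, and the E-box CACGTG in Lpin2. Each sequence is written 5′ to 3′ on the strand of its gene.
Mogat1, chr1:78510810-78511059, plus strand: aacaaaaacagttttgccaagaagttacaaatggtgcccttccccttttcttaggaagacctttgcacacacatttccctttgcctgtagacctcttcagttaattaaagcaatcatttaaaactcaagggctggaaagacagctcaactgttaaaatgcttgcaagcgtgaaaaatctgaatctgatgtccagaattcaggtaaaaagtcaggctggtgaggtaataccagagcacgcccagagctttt
Gpam, chr19:55099478-55099727, minus strand: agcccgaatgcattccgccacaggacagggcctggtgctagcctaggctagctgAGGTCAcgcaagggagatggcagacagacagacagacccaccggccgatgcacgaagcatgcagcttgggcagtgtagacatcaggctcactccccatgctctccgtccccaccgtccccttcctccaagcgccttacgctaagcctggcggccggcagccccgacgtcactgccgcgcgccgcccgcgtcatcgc
Lpin1, chr12:16610967-16611216, minus strand: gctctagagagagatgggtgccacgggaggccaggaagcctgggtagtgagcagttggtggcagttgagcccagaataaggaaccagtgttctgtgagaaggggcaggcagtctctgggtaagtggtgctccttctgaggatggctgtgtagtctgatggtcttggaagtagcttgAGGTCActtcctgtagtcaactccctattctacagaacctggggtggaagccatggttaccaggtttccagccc
Lpin2, chr17:71183282-71183531, plus strand: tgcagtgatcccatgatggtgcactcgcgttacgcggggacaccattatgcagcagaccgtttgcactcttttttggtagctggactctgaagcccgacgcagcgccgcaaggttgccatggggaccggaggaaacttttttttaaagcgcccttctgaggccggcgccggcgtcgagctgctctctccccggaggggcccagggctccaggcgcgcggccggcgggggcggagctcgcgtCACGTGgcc
The STAT site TTCNNNGAA was searched as well, and 0 of the 11 windows held it. All 3 motifs were searched on both strands, and they share no overlap in the windows shown. Over 32851 windows of the same length in the table, 14.02% held the hexamer, 6.02% the E-box and 7.02% the STAT site. A match describes the letters of a window, and its lack in a window says nothing about the factor.

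Leptin was injected into mutants to find early responses. In mice, leptin-injected and saline-injected Lepob/Lepob liver differed little in these genes: 0 of 9 passed 2-fold on the higher side (0.182% of 11536 genes) and 0 on the lower side (0.243%). The signals of 8 of the 9 were lower after leptin, with a median log2 ratio of -0.07 beside -0.00 over all genes, of which 49.4% lay above 0. Without probe sets that can bind several transcripts, 6 of 9 were lower, with Agpat3 at 0.14 and Dgat1 at 0.25. None reached 1.5-fold, where the shares of all genes were 2.18% higher and 2.21% lower. With the floor at the 25th percentile 1 was 1.5-fold lower, Lpin3 at a log2 ratio of -0.81. This comparison shares the saline-injected mutant array with the genotype comparison, so that a deviation of that array enters both.

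After leptin, Mogat1 was 1.41-fold lower, with 914.9 in leptin-injected against 1290.4 in saline-injected Lepob/Lepob liver. It remained the gene with the largest ratio to WT among the 9. Lpin1 was lower on both of its probe sets, 1.17-fold with 1215.2 against 1423.6 and 1.40-fold with 663.5 against 925.6 in saline-injected mutants. Lpin2 had log2 ratios of 0.12, 0.09 and -0.24 on 3 probe sets and 0.61 on 1446316_at, where the leptin-injected array had 982.1 and the saline-injected array 644.3. On their brightest probe sets, Gpam, Agpat3, Dgat1 and Dgat2 differed by 1.01-fold to 1.05-fold and Agpat2 by 1.12-fold, below the spread between probe sets. Beyond that spread were 1425834_a_at of Gpam, 1.43-fold lower, 1433818_at of Agpat3, 1.26-fold lower, and 1422677_at of Dgat2, 1.22-fold lower. Agpat3 was 1.10-fold higher on 1433817_at, and Dgat1 1.19-fold higher on its other probe set. Lpin3 was at least 1.23-fold lower, from a signal of 101.7 on the saline-injected array.

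In leptin-injected Lepob/Lepob against WT mice, 8 of the 9 genes were measured and Mogat1 was again the gene at least 2-fold higher (3.98% of 11958 genes), with 0 lower (3.46%). At 1.5-fold 3 were higher (11.4%), with Gpam at 1.91-fold and Lpin2 at 1.56-fold beside Mogat1, and 0 lower (11.7%). Gpam rests on 1 of its probe sets here: 1425834_a_at was 1.89-fold lower, and the median over both was a log2 ratio of 0.01. The other Lpin2 probe sets disagreed, with 1452837_at 2.08-fold higher, 1446316_at 4.46-fold higher and 1460290_at 1.11-fold lower. The counts use the brightest probe set of a gene and leave these out. All Agpat3 probe sets were higher, with log2 ratios from 0.12 on 1433818_at to 0.93 on 1433817_at. Dgat2 was lower on both probe sets, by 1.96-fold on 1422677_at. Agpat2 and Lpin1 had log2 ratios of -0.03 and -0.10, which turned to 0.19 and 0.12 after centring on the array medians.

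The rats repeat the genotype contrast in another species with another Lep mutation. In saline-injected Lepmkyo/Lepmkyo liver Gpam, Lpin1 and Lpin2 were higher than in WT liver, and the other 5 measured genes were lower by less than the probe set spread or, for Lpin3, slightly more. At 2-fold, 1 of 8 measured genes was higher (2.99% of 9817 genes) and 0 lower (1.45%). At 1.5-fold 3 of 8 were higher (10.2%) and 0 lower (5.92%), and the median log2 ratio was -0.03 beside 0.04 over all genes.

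**Figure D2:**
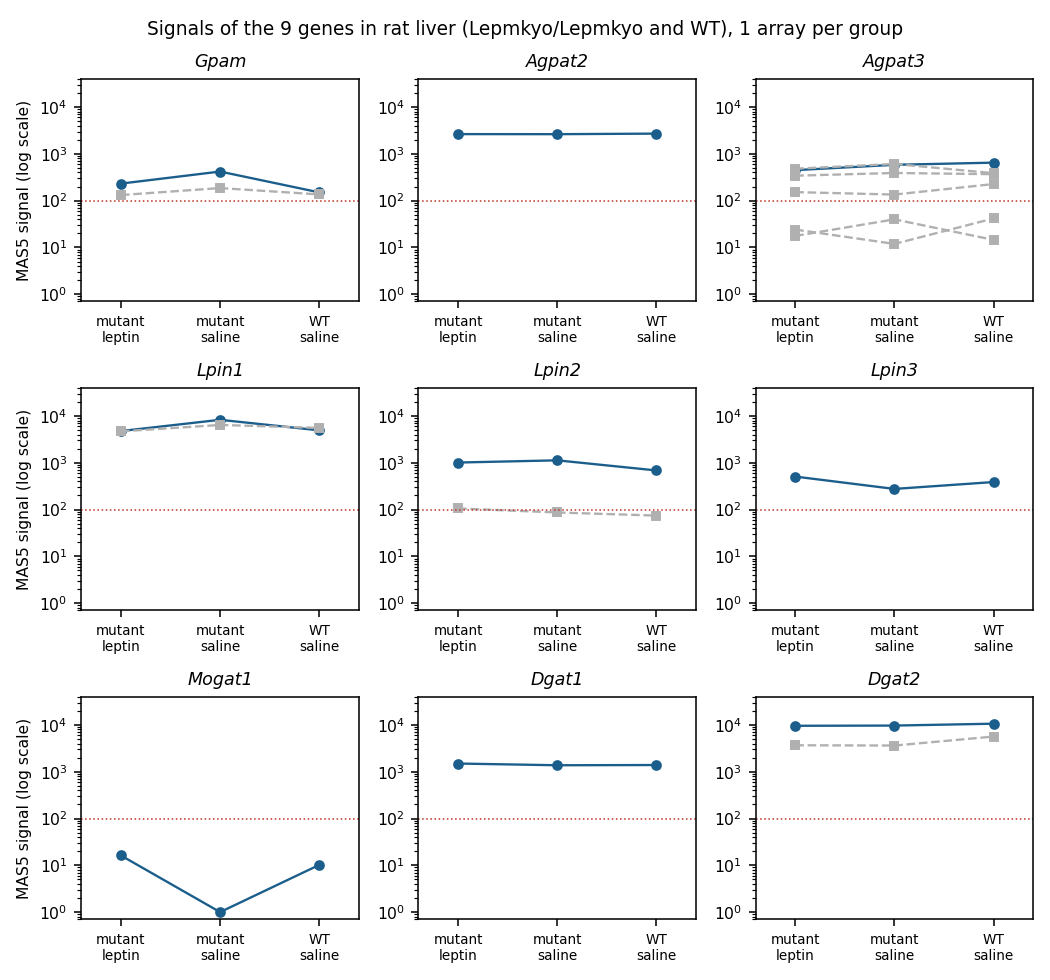
MAS5 signal (vertical log axis) of the probe sets of the 9 genes on the rat arrays of leptin-injected Lepmkyo/Lepmkyo, saline-injected Lepmkyo/Lepmkyo and WT liver. Symbols are as in the mouse plot of signals by group and the dotted line is the floor of 97.0. Each point is 1 array. Lpin1 and Gpam are highest in saline-injected mutants, and Mogat1 is under the floor on all 3 arrays.

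Gpam had 231.2 in leptin-injected Lepmkyo/Lepmkyo, 418.5 in saline-injected Lepmkyo/Lepmkyo and 150.0 in WT liver. The saline-injected mutant was 2.79-fold higher, though under 2-fold as the median over both Gpam probe sets (log2 ratio 0.97). The other Gpam probe set had 131.6, 185.7 and 135.7 in the same order of groups, 1.37-fold higher in the saline-injected mutant, and all 6 values lay within 5 times the floor. Lpin1, on 1372524_at, had 4763.5, 8282.9 and 4933.3 in leptin-injected Lepmkyo/Lepmkyo, saline-injected Lepmkyo/Lepmkyo and WT liver, with the saline-injected mutant 1.68-fold above WT and the other arrays within 1.04-fold of each other. Its second probe set, 1377599_at, gave the same order of groups for the highest value, 4689.1, 6430.4 and 5556.7, but a smaller ratio of 1.16-fold to WT. Lpin2 had 1011.9, 1127.1 and 685.4 in these groups and was 1.64-fold higher in the saline-injected mutant than in WT. Lpin3 had 507.1 in leptin-injected Lepmkyo/Lepmkyo, 276.2 in saline-injected Lepmkyo/Lepmkyo and 387.5 in WT liver, and the saline-injected mutant was 1.40-fold lower.

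Agpat2 and Dgat1 were nearly level in rats, with 2630.7 in saline-injected Lepmkyo/Lepmkyo and 2704.0 in WT liver for Agpat2 and 1373.9 and 1389.2 for Dgat1. The probe sets of Agpat3 disagreed: 1372276_at was 1.58-fold higher in the mutant, 1397491_at 1.68-fold lower, the brightest, 1382041_at, 1.11-fold lower, and 2 of the 6 were under the floor on all arrays. Dgat2 was 1.10-fold lower with 9679.7 against 10610.4 in WT liver, and 1.55-fold lower on its second probe set with 3624.2 against 5631.4. On both Dgat2 probe sets of both species the saline-injected mutant thus had the lower signal, except after centring for the brighter mouse probe set.

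In rats, leptin-injected and saline-injected mutants differed most in Lpin3, Gpam and Lpin1. At 2-fold 0 of 8 measured genes were higher (0.237% of 9705 genes) and 0 lower (0.278%). At 1.5-fold 2 were lower (2.59%), Gpam at 1.81-fold with 231.2 against 418.5 and Lpin1 at 1.74-fold with 4763.5 against 8282.9, and 1 was higher (2.12%), Lpin3 at 1.84-fold with 507.1 against 276.2. The second probe sets of Gpam and Lpin1 were lower as well, by 1.41-fold and 1.37-fold. These log2 ratios, between -0.46 and -0.86, were larger than the probe set spread of 0.25. Agpat3 had 448.3 against 582.9, 1.30-fold lower, while Agpat2, Dgat1, Dgat2 and Lpin2 differed by 1.00-fold to 1.11-fold. The median over the measured genes was -0.09 beside 0.01 over all genes. As in mice, the saline-injected mutant array serves in both comparisons.

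Set against WT rats, leptin-injected Lepmkyo/Lepmkyo had 0 of 8 genes 2-fold higher (2.83% of 9742 genes) and 0 lower (1.61%). At 1.5-fold 1 was higher (10.3%), Gpam at 1.54-fold, and 0 lower (6.85%). The other Gpam probe set was 1.03-fold lower, the median over both was a log2 ratio of 0.29, and with a floor at the 75th percentile Gpam was not measured. Lpin2 was 1.48-fold higher, Agpat3 1.45-fold lower, and Lpin1 had a log2 ratio of -0.05 that turned to 0.03 after centring.

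**Figure D3:**
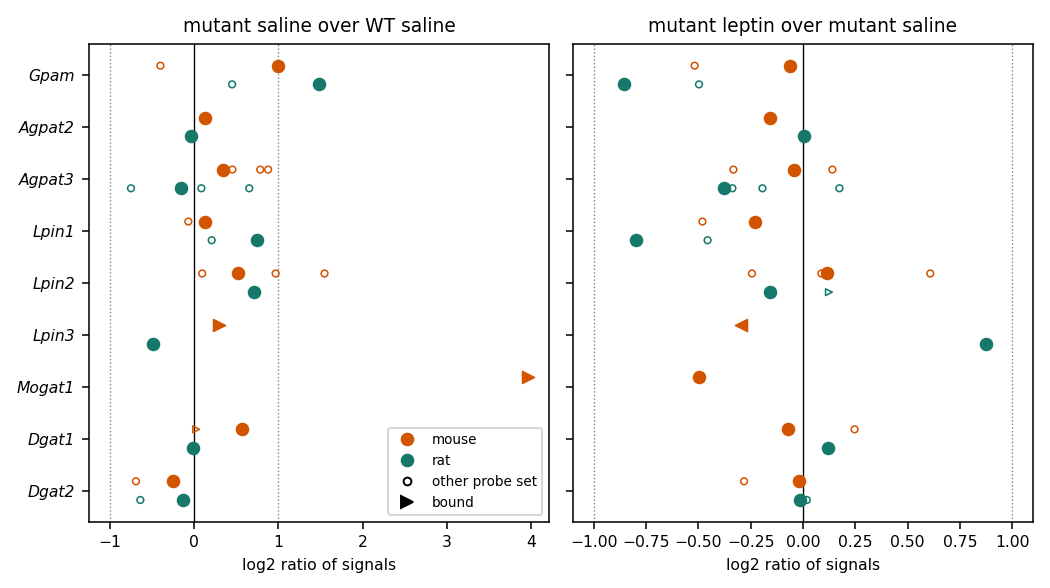
Log2 ratios of signals (horizontal axis) of the 9 genes for saline-injected mutants over WT (left panel) and leptin-injected over saline-injected mutants (right panel), with mice in orange and rats in green. Large filled symbols are the probe set that represents a gene, small open symbols its other probe sets, triangles bounds set by the floor, and dotted lines 2-fold. Mogat1 in mice lies at 3.96 in the left panel, and in the right panel no symbol reaches 2-fold.

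Across the species, 23 pairs of a gene and a contrast had values in both, and 9 of these had opposite signs. No gene was at least 1.5-fold apart in opposite directions. The share of such pairs over all genes was not taken, so these counts have no baseline. The contrasts within a species also share arrays, and several of the ratios lay near 0. The levels of a mouse and a rat probe set cannot be compared. Side by side, the log2 ratio of saline-injected mutant to WT was 0.99 in mice and 1.48 in rats for Gpam, 0.53 and 0.72 for Lpin2, and 0.13 and 0.75 for Lpin1. For leptin, Lpin1 had -0.23 in mice and -0.80 in rats and Gpam -0.06 and -0.86. The differences between species were not tested.

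Some other genes of the pathway showed larger ratios in mice than the 9 genes other than Mogat1. Among other glycerolipid and neutral lipid acyltransferases, 2 of 10 measured were at least 2-fold higher in saline-injected Lepob/Lepob than in WT liver and 0 lower, with a median of 0.13. For this group and those below, the genotype shares over all genes were 4.46% higher and 3.71% lower in mice. In rats they were 2.99% and 1.45%. In groups this small, a count of 1 gene cannot be told from such shares. Gpat3, a glycerol 3-phosphate acyltransferase of the endoplasmic reticulum, had 1983.8 in saline-injected Lepob/Lepob and 97.3 in WT liver, 20.4-fold higher, and 1969.1 after leptin. Mogat2, the intestinal monoacylglycerol acyltransferase, had 296.4 against 15.5 and was at least 3.58-fold higher. Of the enterocyte markers Vil1 and Lct were under the floor on all 3 mouse arrays, while Fabp2 had 15577.5 in saline-injected Lepob/Lepob and 4054.3 in WT liver, and the part of such cells was not tested. Gpat3 and Mogat2 thus ran the same way as Mogat1 in mice. The lysophospholipid acyltransferases Lpcat3 and Lclat1 were 1.64-fold and 1.63-fold higher. Agpat4 was 1.74-fold higher after leptin, with 225.4 in leptin-injected and 129.8 in saline-injected Lepob/Lepob liver, and 2.01-fold higher than WT. That probe set can bind several transcripts, and its WT signal of 112.3 lay near the floor. In rats, Mogat2 was under the floor on all 3 arrays, 0 of 7 measured genes of the group were 2-fold apart and the median was 0.08.

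The supply of acyl-CoA and glycerol 3-phosphate had 1 of 9 genes at least 2-fold higher in saline-injected Lepob/Lepob liver, 0 lower and a median of -0.12. This was Gpd1, the dehydrogenase that makes glycerol 3-phosphate, with 5881.4 against 2819.6 in WT liver, 2.09-fold, although the median over its probe sets stayed under 2-fold. In rats 0 of 11 were higher and 1 lower, the long-chain acyl-CoA synthetase Acsl4 at 2.15-fold with 7883.7 in saline-injected Lepmkyo/Lepmkyo and 16969.3 in WT liver, and the median was 0.13. Acsl3 and Slc27a4 were 1.51-fold and 1.53-fold higher there.

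Of the enzymes of other fates of phosphatidate and diacylglycerol, 1 of 14 was 2-fold higher in mice and 1 of 13 in rats, in both cases Plpp2, a lipid phosphate phosphatase that is not a lipin, and 0 were lower. Plpp2 had 2418.1 in saline-injected Lepob/Lepob against 1071.8 in WT mouse liver, and 1659.8 in saline-injected Lepmkyo/Lepmkyo against 827.9 in WT rat liver, 2.26-fold and 2.005-fold. The rat ratio was under 2-fold after quantile normalization. The medians were 0.15 in mice and -0.03 in rats. Chpt1, which turns diacylglycerol into phosphatidylcholine, was 1.83-fold higher in the mouse mutant and the diacylglycerol kinase Dgkq 1.92-fold lower.

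Genes of droplet and lipoprotein assembly had a median of 0.82 in mice over 6 genes, with 2 at least 2-fold higher and 0 lower, and of 0.28 in rats over 5 genes, with 0 at 2-fold. Fitm1, which partitions triglyceride into droplets, was 3.08-fold higher with 4830.4 in saline-injected Lepob/Lepob and 1565.8 in WT mouse liver, its relative Fitm2 1.92-fold, and the droplet protein Hilpda 2.28-fold at 242.5 against 106.5. Seipin (Bscl2) was 1.63-fold higher. In rats Tm6sf2 was 1.38-fold higher and Fitm1 was under the floor on all arrays.

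Of the lipin partners and regulators, 2 of 11 were at least 2-fold higher in saline-injected Lepob/Lepob than in WT liver and 1 lower, with a median of -0.05. Pparg had 878.0 against 222.1, 3.95-fold, and Ppara 7563.5 against 2229.8, 3.39-fold, though with a median over its probe sets of 0.73. Mlxipl, the carbohydrate response element binding protein, was 2.41-fold lower. In rats 0 of 9 were 2-fold apart in the genotype comparison, with a median of -0.07, and Srebf1 was 1.88-fold higher with 5788.9 against 3076.6. Ppargc1a, which encodes PGC-1alpha, had 128.5 in leptin-injected Lepmkyo/Lepmkyo, 257.1 in saline-injected Lepmkyo/Lepmkyo and 300.1 in WT liver, 2.001-fold lower after leptin. That call was lost after quantile normalization and after centring. Its relative Ppargc1b was 1.61-fold lower after leptin. In mice Ppargc1a had 680.0 in leptin-injected and 661.6 in saline-injected Lepob/Lepob liver. After leptin, 0 genes of the 5 groups were 2-fold apart in mice, and in rats only Ppargc1a was. Over all genes the shares for leptin were 0.182% higher and 0.243% lower in mice, and 0.237% and 0.278% in rats.

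**Figure D4:**
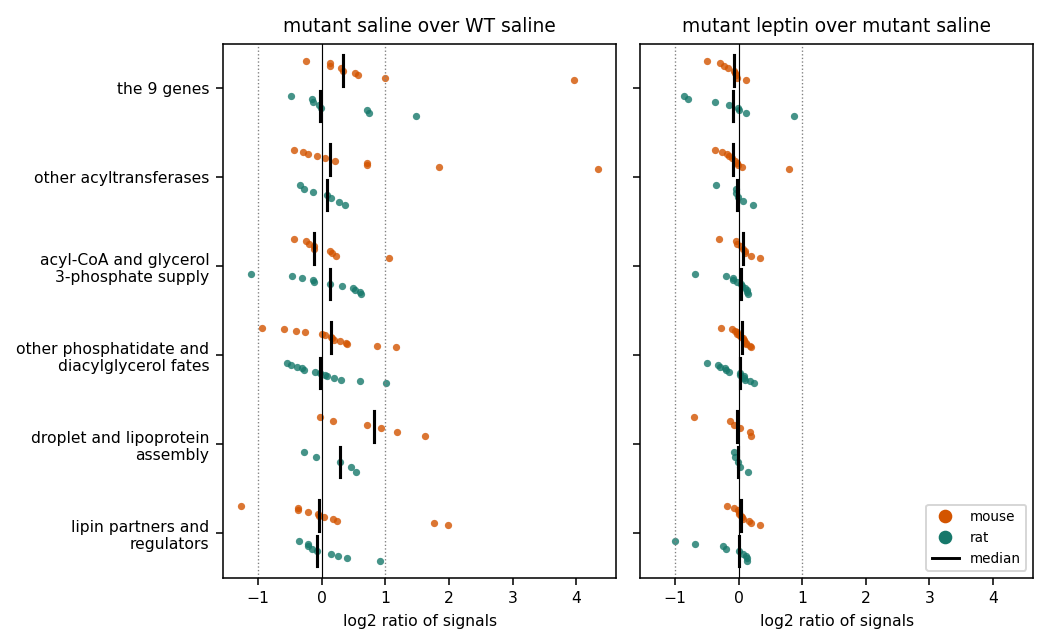
Log2 ratios of signals (horizontal axis) for the 9 genes and 5 groups of other pathway genes, saline-injected mutants over WT (left panel) and leptin-injected over saline-injected mutants (right panel). Each point is 1 measured gene, mice in orange and rats in green, black bars are medians and dotted lines mark 2-fold. In the left panel the mouse medians are 0.34 for the 9 genes and 0.82 for droplet and lipoprotein assembly, and the rat medians lie between -0.07 and 0.28.

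Genes with ratios most like those of Mogat1 were sought over its 2 mouse ratios, which come from 3 arrays. Among 11315 genes the nearest by Euclidean distance were the monocarboxylate transporter family member Slc16a5 (0.256), the lipoprotein receptor Vldlr (0.298) and the fatty acid translocase Cd36 (0.299). Cd36 had log2 ratios of 3.93 for saline-injected mutant over WT and -0.20 for leptin, beside at least 3.96 and -0.50 for Mogat1. As the first of these is a bound set by the floor and was entered as a value, the distances and their order describe the floored data only. For Gpam, over 4 ratios from 6 arrays and 8065 genes, the nearest were the chemokine Ccl2 (0.319), the junction protein Ppl (0.413) and the cell cycle kinase Cdk1 (0.440). With a floor at the 25th percentile 0 of the 3 genes were shared for either, so these neighbours depend on the floor.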

How the data were processed

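Liver RNA (Trizol extraction) was labelled with biotin and hybridised, per the labels' protocols. The authors deposited 1 linear intensity per probe set and array. The submitters' processing notes name MAS5, with no version, a method that sets the trimmed mean of every array to the same target. Detection calls, image files and animal numbers were not used here, so a floor stands in for detection calls, and ratios of dim probe sets are noisy.

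Gene symbols were those of the platform annotation. In mice 34945 probe sets had 1 symbol, 932 had several and 9160 had none, and 34741 were matched by gene identifier to the gene table of RefSeq GRCm38.p6. In rats 20826 had 1, 436 several and 9780 none. Only probe sets with 1 symbol were used. A gene was measured where the higher of its 2 signals reached the floor. Ratios were calculated in Python 3.11.15 with pandas 2.3.3 and numpy 2.4.6, over all genes, and tested on simulated data. Each group is 1 array, so there is no test.

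The genes and lists were chosen with earlier results of these data known. Beyond the 9 genes, those named were list members 2-fold apart in any comparison, up to 2 others per list with the largest genotype ratios, the 3 nearest in pattern to a gene 2-fold apart, and markers named for the check of the tissue. Alternatives were quantile normalization, median centring, a floor at the 25th or at the 75th percentile, a gene value taken as the median over probe sets, and the removal of probe sets able to bind several transcripts. Applying them to 1.5-fold counts, the pathway lists and neighbours was chosen after seeing the data. Precision is limited by the number of arrays.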

Additional observations from a re-analysis of the deposited data

How the results depend on the processing

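With 1 array per group, leaving out replicates was not possible. No paired analysis was possible because each group holds 1 array. With the arrays centred on their medians, 2 of the 9 genes were at least 2-fold higher in saline-injected Lepob/Lepob than in WT mice, and 2 in leptin-injected Lepob/Lepob than in WT mice, Gpam being the second gene in each. In saline-injected Lepmkyo/Lepmkyo against WT rats, 0 were 2-fold higher with the floor at the 75th percentile, where Gpam was under the floor on both arrays, and 0 with the median over probe sets, where Gpam had a log2 ratio of 0.97. The other counts of 2-fold genes, all directions and comparisons, were as reported under the 6 alternatives. At 1.5-fold, the 6 alternatives gave 2 to 5 genes higher in saline-injected Lepob/Lepob against WT mice (5 with centring), 2 to 4 in leptin-injected Lepob/Lepob against WT mice and 0 to 2 in leptin-injected Lepmkyo/Lepmkyo against WT rats. In saline-injected Lepmkyo/Lepmkyo against WT rats, 2 of 6 measured genes were 1.5-fold higher with the 75th percentile floor, beside 3 of 8. The median over probe sets also gave 2, with Lpin1 at a log2 ratio of 0.48. On the lower side, the median over probe sets gave 1 gene in leptin-injected Lepob/Lepob against WT mice, Dgat2, beside 0 as deposited. After leptin in rats, the 75th percentile floor left 0 higher and 1 lower, beside 1 and 2. After leptin in mice, the 25th percentile floor gave 0 higher and 1 lower, Lpin3, beside 0 and 0. Over all genes, centring gave 962 higher and 235 lower in saline-injected Lepob/Lepob against WT mice, beside 533 and 443, and 767 and 235 in leptin-injected Lepob/Lepob against WT mice, beside 476 and 414. Of 294 recomputed log2 ratios of the 9 genes, 281 kept their sign, and the 13 that did not had sizes of at most 0.25. Many of these signs could not change. Another floor cannot reverse a sign, and the probe set settings leave the ratio of a gene with 1 probe set as it was. The count of kept signs therefore overstates how far the signs were checked. The bound of Mogat1 in saline-injected Lepob/Lepob over WT mice was 4.62 with the lower floor and 1.74 with the higher one. Without probe sets that can bind several transcripts, the mouse Dgat1 ratio of that comparison was 0.03. Lpin3 in leptin-injected over saline-injected rats was 0.16 with the higher floor. Of 1605 log2 ratios of pathway genes, 1519 kept their sign and none that was 2-fold apart reversed, a count with the same limit. Signals near background limit Mogat1, Lpin3 and rat Gpam, and among the other pathway genes mouse Gpat3, Mogat2 and Agpat4.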
